A study of Mus musculus with 3 samples.

Results

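The genes described here are 10 stress-response genes of the mouse, 8 targets of the transcription factor NRF2 (Hmox1, Nqo1, Gclc, Gclm, Txnrd1, Srxn1, Slc7a11 and Gsr) and the metallothioneins Mt1 and Mt2. They were taken by gene symbol from the count table of each library, so that they make up 10 of 23238 symbols. All 10 passed the filter on low values, a CPM (counts scaled to a fixed library total) of at least 1 in any library, which 13169 symbols met.

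RNA-seq was performed on c2c12 cells, an immortalized mouse myoblast line that fuses into myotubes, after 2 days in myogenic induction medium, which is DMEM with a low share of horse serum. The cells were cultured on TCP (the plain tissue culture plate), on GelMA (a hydrogel made of methacrylated gelatin at 15% w/v) or on GelMA-PSS (the same hydrogel with 1% w/v of poly(sodium-4-styrenesulfonate), a negatively charged sulfonated polymer that serves as a mimic of heparin). The question was how a sulfonated hydrogel changes the cells relative to both control substrates. Each substrate had 1 library of a single line, so no difference below has a replicate check, no test was possible, and the difference between GelMA and TCP is the only yardstick.

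The TCP library held 119799095 counts, the GelMA library 87071144 and the GelMA-PSS library 192171443, and 1107 counts was the smallest value of any of the 10 genes. Intervals below are at 95% and cover counting error only, and they are somewhat too narrow if both mates of a read pair were counted. Muscle identity was visible in all libraries, with Myog, the regulator of terminal differentiation, at a CPM of 1100 in TCP, 895 in GelMA and 1037 in GelMA-PSS. Other muscle markers differed to unlike degrees. Myh3 (embryonic myosin heavy chain) stood at 10182, 6355 and 3037 and Myf5 (a myoblast factor) at 13.9, 19.5 and 36.5 in the same order. Des stood at 3299, 2863 and 3154, Myod1 at 94.3, 105 and 119, and Ckm at 542, 430 and 380. The log2 difference of GelMA-PSS from GelMA was -1.07 for Myh3, and -0.61 after the correction for transcript length described below. That of Myf5 went from 0.87 to 0.52. Of 12 markers of endothelial, haematopoietic, epithelial and adipocyte cells, 2 passed the filter (Cdh1 and Cd68), and Ptprc had a CPM of 0 in both controls and 0.0221 in GelMA-PSS. Whether these differences in muscle markers bear on the genes below was not tested. In bulk RNA, fewer cells that express a gene and less of its RNA per cell cannot be told apart.

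NRF2 (gene Nfe2l2) is made continuously and destroyed through KEAP1, which presents it to a CUL3 ubiquitin ligase. When electrophiles or oxidants modify cysteines of KEAP1, NRF2 escapes, pairs with a small MAF protein and binds antioxidant response elements (AREs), which BACH1 can otherwise occupy. Its targets import cystine, make and recycle glutathione, reduce thioredoxin and peroxiredoxins, and neutralise quinones and haem. Metallothioneins are small cysteine-rich proteins that bind zinc and copper, and their genes are switched on by the zinc-sensing factor MTF1 through metal response elements (MREs), as well as by glucocorticoids and oxidants. In muscle, as in other tissues, both systems limit damage by oxidants.

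None of the 10 genes differed 2-fold in GelMA-PSS from both controls. Of all 13169 genes, 1.37% were 2-fold higher and 1.16% were 2-fold lower than in both. Counting differences of any size, 4 of the 10 (Slc7a11, Srxn1, Mt2 and Nqo1) were above both controls, beside 45.3% of all genes, and 2 (Gclc and Txnrd1) were below both, beside 39.3%, while Hmox1, Gclm, Gsr and Mt1 lay between the controls. The count above both is near the background share and the count below both is under it, which over 10 genes was not tested. Between GelMA and TCP none of the 10 was 2-fold apart, and 0.706% of all genes were 2-fold higher and 0.296% 2-fold lower in GelMA. The median difference in log2(CPM + 1) of the 8 NRF2 targets, GelMA-PSS minus control, was 0.07 against GelMA and -0.03 against TCP, beside 0.03 and 0.04 over all genes. After the length correction that median was -0.09 against GelMA and 0.04 against TCP, beside 0.00 and -0.00 over all genes. The median of Mt1 and Mt2 was 0.30 against GelMA and 0.28 against TCP, but -0.31 and -0.27 after the correction for transcript length described below.

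**Figure D1:**
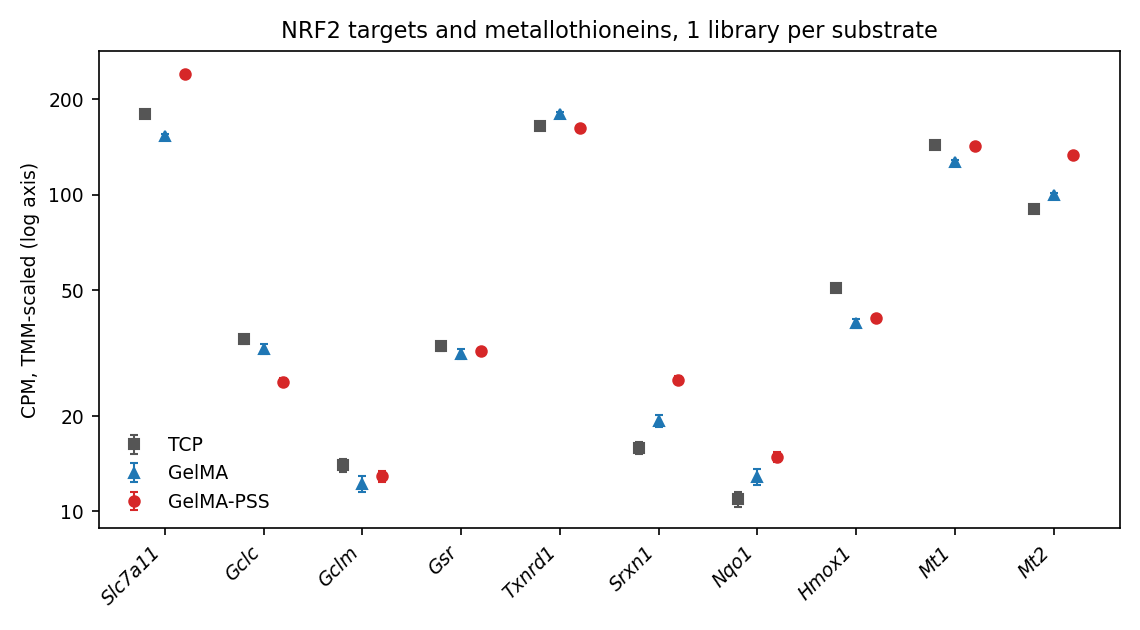
CPM (log axis) of each of the 10 genes in the TCP, GelMA and GelMA-PSS libraries, 1 point per library, with 95% counting intervals. Slc7a11 stood at 181, 153 and 241 in that order and Srxn1 at 15.9, 19.3 and 26.1, whereas the 3 points of Gsr lie between 31.4 and 33.2.

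The promoters of Slc7a11, Srxn1 and Mt2 are shown because these genes had the largest excess in GelMA-PSS over the nearer control among the 10, and that of Mt1 because it neighbours Mt2 and had a different profile. Each sequence is the 250 bases before the transcription start in RefSeq (GRCm38.p6), 5′ to 3′ on the gene's strand, with motif matches on either strand in capitals. Letters searched were TGACNNNGC and TGAGNNNGC for the ARE, TGCNCNC for the MRE and TGATGNAA for the element bound by ATF4 with a C/EBP partner (AARE), and positions are counted back from the start. The MRE letters are a loose form, since they leave the base after TGC open and admit T there. The sequences lie at chr3:50443614-50443863 on the minus strand for Slc7a11 and, on the plus strand, at chr2:152105274-152105523 for Srxn1, chr8:94172368-94172617 for Mt2 and chr8:94178839-94179088 for Mt1.
Slc7a11: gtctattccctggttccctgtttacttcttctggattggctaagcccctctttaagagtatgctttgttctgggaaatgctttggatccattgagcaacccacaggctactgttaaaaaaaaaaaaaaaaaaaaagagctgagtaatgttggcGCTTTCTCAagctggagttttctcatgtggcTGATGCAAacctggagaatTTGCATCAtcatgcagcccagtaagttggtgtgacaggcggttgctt
Srxn1: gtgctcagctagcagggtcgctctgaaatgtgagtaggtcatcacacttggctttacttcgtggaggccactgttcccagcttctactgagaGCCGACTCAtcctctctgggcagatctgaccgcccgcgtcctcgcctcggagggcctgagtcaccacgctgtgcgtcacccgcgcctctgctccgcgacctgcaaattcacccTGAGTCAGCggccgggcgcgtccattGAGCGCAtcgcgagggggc
Mt2: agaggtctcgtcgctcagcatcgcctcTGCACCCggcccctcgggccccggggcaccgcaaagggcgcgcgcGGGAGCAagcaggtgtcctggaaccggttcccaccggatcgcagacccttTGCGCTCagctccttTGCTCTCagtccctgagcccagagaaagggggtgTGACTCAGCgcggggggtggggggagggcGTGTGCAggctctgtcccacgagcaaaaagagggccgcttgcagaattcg
Mt1: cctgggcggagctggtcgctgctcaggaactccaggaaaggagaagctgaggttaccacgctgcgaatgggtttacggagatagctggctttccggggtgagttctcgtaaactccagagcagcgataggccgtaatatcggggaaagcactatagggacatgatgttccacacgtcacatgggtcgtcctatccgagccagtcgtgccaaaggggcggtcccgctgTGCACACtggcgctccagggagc

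The Slc7a11 promoter held 1 match to TGAGNNNGC, from -97 to -89, and 2 matches to the AARE letters, from -66 to -59 and from -47 to -40. Of 32851 promoters of this length, 14.4% held TGAGNNNGC and 3.45% held the AARE letters, and 0.0396% held these more than once. The Srxn1 promoter held TGAGNNNGC at 2 places, from -158 to -150 and from -45 to -37, as did 1.25% of promoters or more often. It also held 1 MRE match from -19 to -13. In these windows Mt2 held 5 matches to the loose MRE letters and Mt1 held 1. The Mt2 matches include some with T after TGC, such as TGCTCTC. The counts depend on the start used. The RefSeq window of Mt1 runs past the GENCODE start at 94179082, whereas that of Mt2 ends ahead of the GENCODE start at 94172664. Bases outside the windows were not searched, so the counts do not compare whole promoters. At least 1 MRE match occurred in 44.4% of promoters and 4 or more in 1.28%. The Mt2 promoter also held TGACNNNGC from -79 to -71, a form found in 10.2% of promoters. Among the other members with an entry, Gclm held 1 match to TGACNNNGC and 2 MRE matches, 1 of which overlaps it, and Nqo1 held 2 MRE matches. Txnrd1 has 3 listed starts, of which the second held 1 match to TGACNNNGC and the others 1 MRE match each. Hmox1, Gclc and Gsr were not examined. These matches are letters in a window and no measurement of binding.

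**Figure D2:**
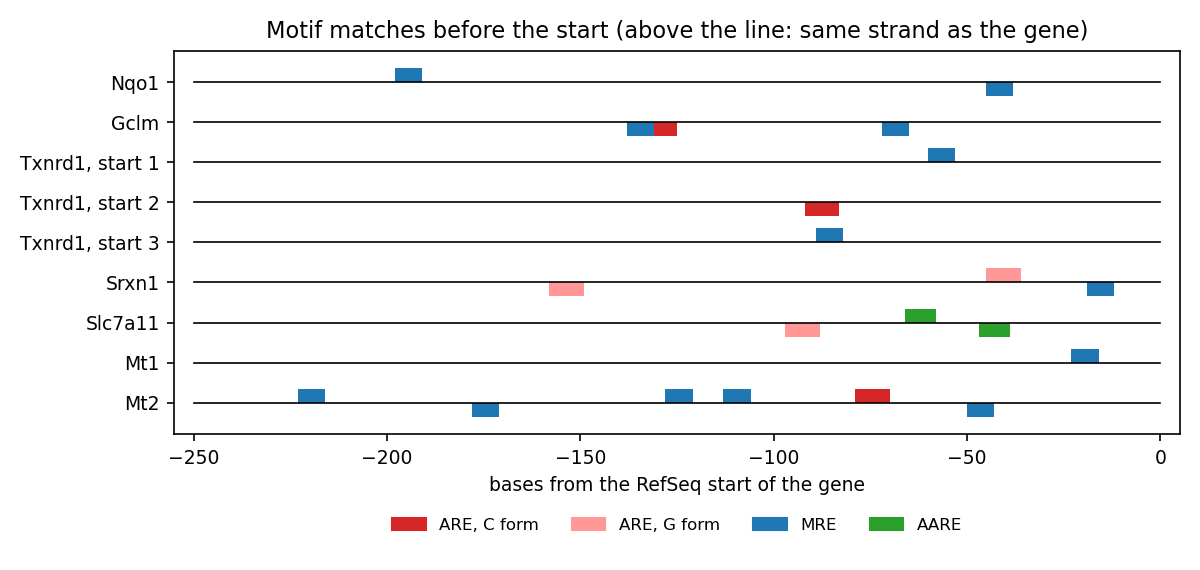
Positions of motif matches in the 250 bases before the RefSeq start of the 7 genes with an entry (Txnrd1 with 3 starts), in bases from the start, with red and pink blocks for ARE matches, blue for MRE and green for AARE, above the line on the gene's strand and below it on the other. Within these windows, and with the loose MRE letters, Mt2 carries 5 MRE marks and Mt1 carries 1, and Slc7a11 is the gene with AARE marks.

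Slc7a11 encodes the cystine carrier of the cystine/glutamate antiporter, which supplies cysteine for glutathione. The gene lies on chromosome 3 (49892526 to 50443614, minus strand, GRCm38), and its transcript has 12 exons and 9223 bases. It had a CPM of 181 in TCP (21992 counts), 153 in GelMA (13912) and 241 in GelMA-PSS (43690). GelMA-PSS was the highest library and GelMA the lowest, and the counting intervals of the 3 did not overlap. The level in GelMA-PSS was 1.58 times that in GelMA (1.55 to 1.61) and 1.34 times that in TCP (1.31 to 1.36), while GelMA was at 0.848 times TCP (0.830 to 0.866). The span of its 3 values was exceeded by 26.2% of all genes. Its obligate partner Slc3a2, the heavy chain that brings the carrier to the membrane, had a CPM of 233, 186 and 189, so that it shared the lower level in GelMA but not the higher level in GelMA-PSS.

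Gclc and Gclm encode the catalytic and the modifier subunit of glutamate-cysteine ligase, the rate-limiting enzyme of glutathione synthesis. Gclc (chromosome 9, 77754535 to 77794485) had a CPM of 34.9 in TCP, 32.5 in GelMA and 25.7 in GelMA-PSS. GelMA-PSS was the lowest, at 0.789 times GelMA (0.754 to 0.827) and 0.735 times TCP (0.705 to 0.767), and it was below both controls under every scaling tried. Gclm (chromosome 3, 122245557 to 122270732) had a CPM of 14.0, 12.2 and 12.9 in the same order, and its 3 values spanned 0.19 on the log2 scale. The proportion of the subunits differed between the libraries. There were 2.49 counts of Gclc per count of Gclm in TCP (2.36 to 2.64), 2.67 in GelMA (2.49 to 2.86) and 1.99 in GelMA-PSS (1.90 to 2.09), a ratio that no scaling of a whole library can alter. The transcripts differ in length, with 3423 bases for Gclc and 5589 for Gclm, and after the length correction Gclc was -0.34 and Gclm 0.31 from GelMA on the log2 scale. Gss, the second enzyme of the pathway, had a CPM of 80.9, 68.4 and 70.1.

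Gsr encodes glutathione reductase, which regenerates glutathione from its oxidised form with NADPH. It had a CPM of 33.2 in TCP, 31.4 in GelMA and 32.1 in GelMA-PSS, and 97.1% of all genes had a wider span over the 3 libraries. Its level in GelMA-PSS was 1.02 times that in GelMA (0.977 to 1.07) and 0.966 times that in TCP (0.928 to 1.01), and both intervals include 1. Among the 4 genes of cystine uptake and glutathione supply, 1 was thus above both controls in GelMA-PSS on the TMM scale, 1 was below them and the other two lay between them. After the length correction Gclm was above both (0.31 against GelMA and 0.06 against TCP) and Gsr below both (-0.08 and -0.13), and with total counts and on the TPM scale both genes were below both controls.

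Txnrd1 encodes cytosolic thioredoxin reductase, the selenoprotein that keeps thioredoxin reduced. It had a CPM of 165 in TCP, 180.0 in GelMA and 163 in GelMA-PSS. The GelMA-PSS level was 0.904 times that of GelMA (0.887 to 0.921), while its interval against TCP (0.968 to 1.00) reached equality, and its place below TCP was lost after the length correction (0.02 on the log2 scale). Srxn1 encodes sulfiredoxin, which repairs peroxiredoxins that peroxide has overoxidised. The gene is on chromosome 2 (152105516 to 152111376), with 2 exons in a transcript of 2812 bases. It had a CPM of 15.9 in TCP (1932 counts), 19.3 in GelMA (1753) and 26.1 in GelMA-PSS (4723). The libraries stood in the order TCP, GelMA, GelMA-PSS without overlap of their counting intervals. GelMA-PSS was at 1.64 times TCP (1.56 to 1.73) and 1.35 times GelMA (1.28 to 1.43), and GelMA at 1.22 times TCP (1.14 to 1.30). Srxn1 had the widest span of the 10 genes, 0.68 on the log2 scale, and 23.8% of all genes had a wider one. It was above both controls with TMM, median-of-ratios and total-count scaling and after the length correction, but at -0.03 against GelMA on the TPM scale.

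Nqo1 encodes a quinone reductase and Hmox1 encodes haem oxygenase 1, which opens the haem ring. Nqo1 (chromosome 8, 107388225 to 107403206) had a CPM of 10.9 in TCP, 12.8 in GelMA and 14.8 in GelMA-PSS, the order seen for Srxn1. GelMA-PSS was at 1.36 times TCP (1.27 to 1.46) and 1.16 times GelMA (1.08 to 1.24), but its log2 difference against GelMA of 0.20 became -0.20 after the length correction and -0.24 on the TPM scale. Hmox1 (chromosome 8, 75093621 to 75100589) had a CPM of 50.8 in TCP, 39.2 in GelMA and 40.9 in GelMA-PSS. Here TCP stood above both hydrogels, with GelMA at 0.772 times TCP (0.740 to 0.804) and GelMA-PSS at 0.804 times TCP (0.777 to 0.832). The hydrogels stood at a ratio of 1.04 (1.00 to 1.08) on the TMM scale, but the log2 difference of GelMA-PSS from GelMA, 0.06, became -0.09 with total counts, -0.25 after the length correction and -0.40 on the TPM scale. Hmox1 was therefore lower on both gels under every scaling tried, with differences of GelMA-PSS from TCP between -0.31 and -0.71 on the log2 scale.

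Mt1 and Mt2 lie side by side on chromosome 8 (94179082 to 94180327 and 94172664 to 94173568), each with 3 exons and 183 coding bases in transcripts of 549 and 511 bases. Mt1 had a CPM of 143 in TCP (17452 counts), 127 in GelMA (11504) and 143 in GelMA-PSS (25883). Mt2 had a CPM of 90.1 (10973 counts), 99.5 (9044) and 133 (24135) in the same order. Mt1 was thus lowest on GelMA and nearly equal on the other substrates on the TMM scale, whereas Mt2 was lowest on TCP and highest on GelMA-PSS. The fold between GelMA-PSS and TCP was 0.997 for Mt1 (0.978 to 1.02) and 1.48 for Mt2 (1.45 to 1.51), and between GelMA-PSS and GelMA it was 1.13 (1.10 to 1.15) and 1.34 (1.31 to 1.37). Mt2 was above both controls with TMM, median-of-ratios and total-count scaling, but its difference against GelMA was -0.21 after the length correction and -0.04 on the TPM scale.

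The proportion of the metallothionein transcripts does not depend on the scaling of the libraries. There were 1.59 counts of Mt1 per count of Mt2 in TCP (1.55 to 1.63), 1.27 in GelMA (1.24 to 1.31) and 1.07 in GelMA-PSS (1.05 to 1.09). The intervals did not overlap, and the ratio was lower on GelMA than on TCP and lower again on GelMA-PSS. The transcripts are of like length and belong to the same of the 10 length classes defined below. None of the stretches of 1 read length in either transcript (449 for Mt1 and 411 for Mt2) occurred in a transcript of another gene, so a read of that length lying wholly in either is unique to it. The other members of the family were near the detection limit, with Mt3 at a CPM of 0.0246, 0.0770 and 0.0386 and Mt4 at 0, 0 and 0.0221.

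**Figure D3:**
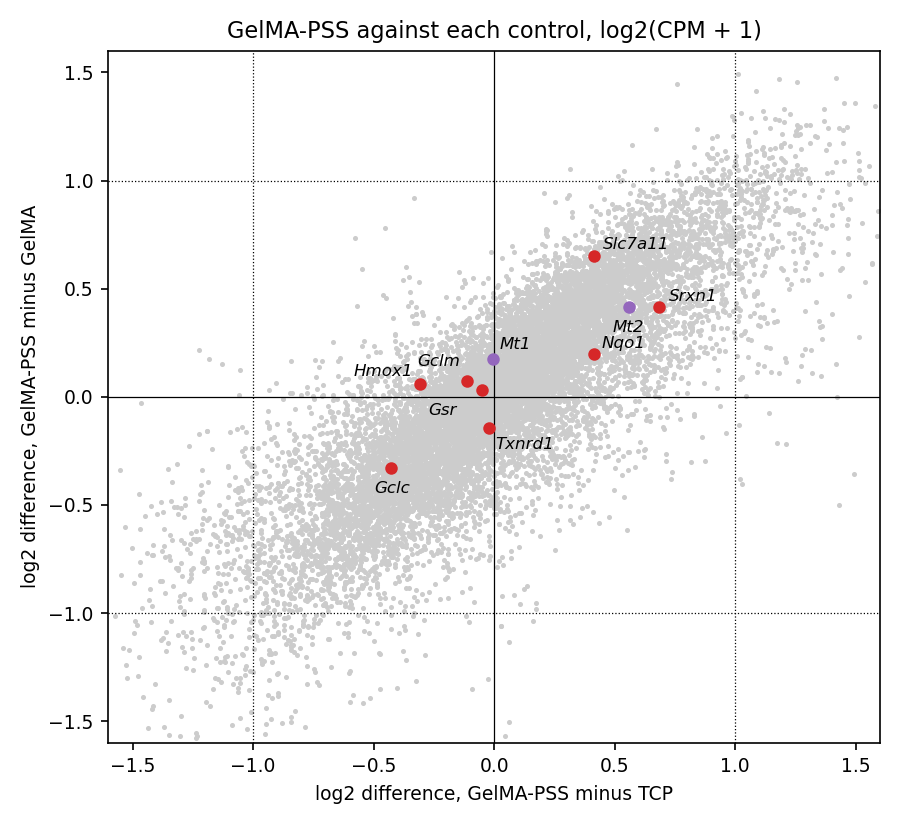
Difference in log2(CPM + 1) between GelMA-PSS and TCP (horizontal) and between GelMA-PSS and GelMA (vertical) for all genes past the filter (grey, axes end at 1.6) and the 10 members (red for NRF2 targets, purple for metallothioneins), with dotted lines at 2-fold. No member lies beyond the lines in either direction, and Mt2 (0.56 and 0.42) and Mt1 (-0.00 and 0.17) lie apart on the TMM scale shown.

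Differences of the GelMA-PSS library varied with transcript length across all genes, and these values stand beside the members. Across 13059 genes, which share the libraries and are not independent replicates, Spearman's rho between length and the log2 difference was -0.66 against GelMA and -0.51 against TCP, and 0.21 for GelMA against TCP. Genes were divided into 10 classes of equal size by length. The class with the shortest transcripts, which holds Mt1 and Mt2, had medians of 0.58 against GelMA and 0.51 against TCP. Within this class, 67.9% of genes had a larger difference against GelMA than Mt2 (45.9% against TCP), and 81.2% a larger one than Mt1 (83.0%). The class with the longest transcripts, 1304 genes including Slc7a11, had medians of -0.62 and -0.47, and only 0.690% of them had a larger difference against GelMA than Slc7a11 and 3.45% against TCP. Srxn1 was of middle length, in a class with medians of 0.09 and 0.07, and 12.1% and 7.69% of that class exceeded it.

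A correction that subtracted the trend with length and then with GC content from each difference changed the order of the members. Slc7a11 went from 0.65 to 1.25 against GelMA and from 0.42 to 0.84 against TCP. Srxn1 and Gclc hardly moved, to 0.38 and 0.65 and to -0.34 and -0.43. Mt2 went from 0.42 to -0.21 and from 0.56 to -0.00, and Mt1 from 0.17 to -0.41 and from -0.00 to -0.53. After the correction 3 members (Slc7a11, Srxn1 and Gclm) were above both controls and 5 were below both. Of all genes 40.6% lay in each direction. The 5 include Mt2, at -0.00 against TCP. The part of transcript length in each member's difference was not tested beyond this correction. Slc7a11 above both controls and Gclc below both were the directions shared by all scalings, although Slc7a11 was 0.01 above TCP on the TPM scale, where the median of all genes was shifted to -0.36 against GelMA and -0.31 against TCP.

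**Figure D4:**
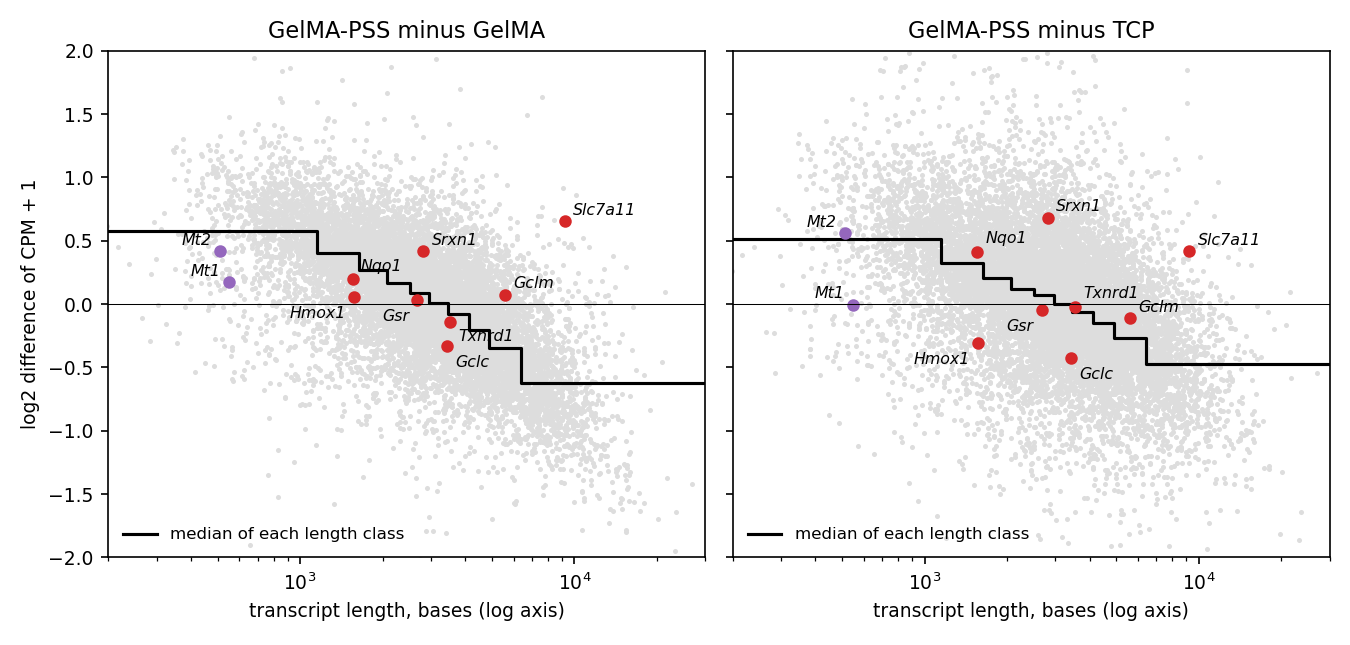
Difference in log2(CPM + 1) of GelMA-PSS from GelMA (left) and from TCP (right) against transcript length in bases (log axis), with all genes in grey, the 10 members in colour and the median of each of the 10 length classes as a black line. Slc7a11 lies far above the line of its class (-0.62 left, -0.47 right) at 0.65 and 0.42, whereas Mt1 lies below its line in both panels.

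Levels between genes were compared as CPM per kilobase of transcript. In TCP and in GelMA the order was the same, Mt1, Mt2, Txnrd1, Hmox1, Slc7a11, Gsr, Gclc, Nqo1, Srxn1 and Gclm, from 261 to 2.50 CPM per kilobase in TCP. In GelMA-PSS Mt2 (261) and Mt1 (260.3) were first with overlapping counting intervals, followed by Txnrd1 at 46.1. Slc7a11 (26.1) and Hmox1 (26.0) were next and could not be ordered, and neither could Nqo1 (9.56) and Srxn1 (9.27). Gclc, ahead of both of these on the control substrates, came after them at 7.50. Gclm was last in every library. The levels of the metallothioneins were thus several times those of any NRF2 target.

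The regulators themselves differed less than 2-fold. Nfe2l2 (NRF2) had a CPM of 114 in TCP, 116 in GelMA and 142 in GelMA-PSS, and its differences of 0.28 against GelMA and 0.31 against TCP became 0.10 and 0.17 after the length correction. Keap1 stood at 32.7, 34.4 and 32.6. Bach1, the competitor at AREs, stood at 78.2, 82.5 and 59.4, with differences of -0.47 and -0.39 that became -0.13 and -0.14. Mtf1, the activator of metallothioneins, stood at 38.4, 40.8 and 33.8, where differences of -0.26 and -0.18 turned to 0.30 and 0.25 after the correction. Of 14 genes that regulate NRF2, 5 were above both controls and 9 below, with none past 2-fold, beside 45.3% and 39.3% of all genes. On the TPM scale 2 were above both (15.4% of all genes) and 12 below (72%). After the correction 4 were above and 9 below, beside 40.6% of all genes in each direction. Gsk3b, a kinase that marks NRF2 for destruction, had a CPM of 97.1, 99.5 and 52.3, and its differences of -0.91 against GelMA and -0.88 against TCP became -0.32 and -0.45 after the correction. Rbx1, a subunit of the CUL3 ligase, stood at 117, 115 and 183, with differences of 0.67 and 0.64 that became 0.30 and 0.35. Maff, a small MAF partner, stood at 24.6, 28.6 and 39.8, with differences of 0.47 and 0.67 that became 0.31 and 0.56. RNA levels do not report the activity of NRF2 or MTF1, which is set on the protein.

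Other genes of the same pathways were counted from 5 lists. In glutathione use 17 of 23 genes past the filter were above both and 1 was below, and in thioredoxin and peroxide metabolism 18 of 22 were above and 3 below. The counts above both were 8 of 9 for the supply of NADPH, 7 of 9 for haem and iron and 13 of 15 for detoxification. Those below both were 0, 2 and 2. Of all genes 45.3% were above both and 39.3% below both. On the TPM scale the counts above both were 14, 9, 2, 4 and 7 in the order named, beside 15.4% of all genes. Those below both were 7, 11, 3, 4 and 5 on that scale, beside 72%. After the length correction the counts above both were 16, 17, 5, 6 and 10. Those below were 5, 4, 2, 2 and 2, beside 40.6% of all genes in each direction. The lists differ in transcript length, with medians of 1097 bases for glutathione use and 2493.5 for thioredoxin and peroxide, against 2953 over all genes.

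On the TMM scale 2 genes of these lists were 2-fold higher than in both controls, beside 1.37% of all genes. They were 1 of 23 in glutathione use and 1 of 22 in thioredoxin and peroxide, with 0 in the other lists. On the TPM scale and after the length correction 0 genes of these lists passed, beside 30 and 60 of all 13059 genes. In the TMM and corrected values 0 were 2-fold lower. On the TPM scale 1 of thioredoxin and peroxide and 2 of haem and iron were 2-fold lower, beside 612 of all genes. Mgst2, a microsomal glutathione transferase, had a CPM of 2.25 in TCP, 2.78 in GelMA and 7.51 in GelMA-PSS. Prdx4, the peroxiredoxin of the endoplasmic reticulum, had 34.2, 49.2 and 100.2. After the length correction their differences were 0.46 and 0.77 for Mgst2 and 0.46 and 1.07 for Prdx4, against GelMA and TCP. Mgst3 (51.7, 51.8 and 99.98), the glutathione peroxidase Gpx1 (59.9, 63.6 and 110) and the peroxiredoxin Prdx5 (149, 182 and 315) were also above both. Their differences from GelMA were 0.94, 0.78 and 0.79, and 0.43, 0.36 and 0.45 after the correction. Sesn2, a stress-induced sestrin, was below both, at 18.5, 15.2 and 8.36. Txnip, the inhibitor of thioredoxin, was the gene of these lists that was 2-fold higher in GelMA than in TCP, at 61.8, 147 and 234.

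Among the NADPH-supplying enzymes Pgls (63.2, 63.5 and 98.3), Tkt (21.3, 31.4 and 44.6) and Me1 (55.3, 57.7 and 75.3) differed most from the nearer control, and the difference of Pgls from GelMA went from 0.62 to 0.28 after the length correction. Of the iron genes, the transferrin receptor Tfrc had a CPM of 262 in TCP, 167 in GelMA and 94.0 in GelMA-PSS. The iron exporter Slc40a1 followed the same order at 10.4, 6.93 and 3.59. Both were little altered by the length correction, with -0.72 and -1.40 for Tfrc and -0.87 and -1.38 for Slc40a1 against GelMA and TCP. The biliverdin reductases Blvrb (11.0, 14.0 and 25.5) and Blvra (11.8, 12.4 and 19.3) were higher in GelMA-PSS. Their differences from GelMA went from 0.82 to 0.38 and from 0.60 to 0.10 after the length correction. In detoxification Ptgr1 (40.5, 47.5 and 88.9), Esd (202, 196 and 341) and the epoxide hydrolase Ephx1 (57.3, 60.0 and 93.2) were above both controls before and after the length correction.

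Slc7a11 is also known as a target of ATF4, the effector of amino acid and endoplasmic reticulum stress, and the metallothioneins as targets of glucocorticoids and metals. Of 14 genes, Atf4 itself and its targets, 3 were above both controls and 7 below, beside 45.3% and 39.3% of all genes. These shares hold for the next lists too. Atf4 counted as above at a CPM of 375.4 against 375.3 in TCP. With median-of-ratios scaling 2 of the 14 were above both, beside 44.9% of all genes. The amino acid transporters Slc7a1 (82.7, 77.7 and 42.4) and Slc7a5 (255, 220 and 158) were lower in GelMA-PSS, and their differences from GelMA went from -0.86 to -0.32 and from -0.48 to -0.35 with the length correction. Ddit3 (18.9, 14.7 and 25.7) was above both controls on the TMM scale, but its difference from TCP was -0.00 after the correction. Of 7 genes of the glucocorticoid list, which holds the receptor Nr3c1 beside targets, 2 were above and 4 below. Klf9 stood at 28.0, 27.9 and 22.0, Per1 at 26.8, 30.1 and 22.3 and Nr3c1 at 34.0, 41.4 and 28.9. After the length correction 2 of the 7 were below both, and Per1 and Nr3c1 were each 0.02 above TCP. Of 24 zinc and copper genes 10 were above and 11 below. In the order ATF4, glucocorticoid, zinc and copper, the counts above both were 1, 0 and 3 on the TPM scale, beside 15.4% of all genes. Those below both were 12, 6 and 20 on that scale, beside 72%. After the length correction the counts were 2, 0 and 13 above and 10, 2 and 7 below, beside 40.6% of all genes in each direction. The copper chaperones Cox17 (73.2, 58.6 and 124) and Atox1 (41.3, 39.5 and 67.4) were above both, with Atox1 going from 0.76 to 0.19 against GelMA after the length correction, and the copper exporter Atp7a (33.7, 40.04 and 24.6) was below. The zinc exporter Slc30a1, a target of MTF1 like the metallothioneins, stood at 10.1, 8.88 and 6.67. Its differences of -0.36 against GelMA and -0.53 against TCP became -0.12 and -0.35 after the length correction.

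**Figure D5:**
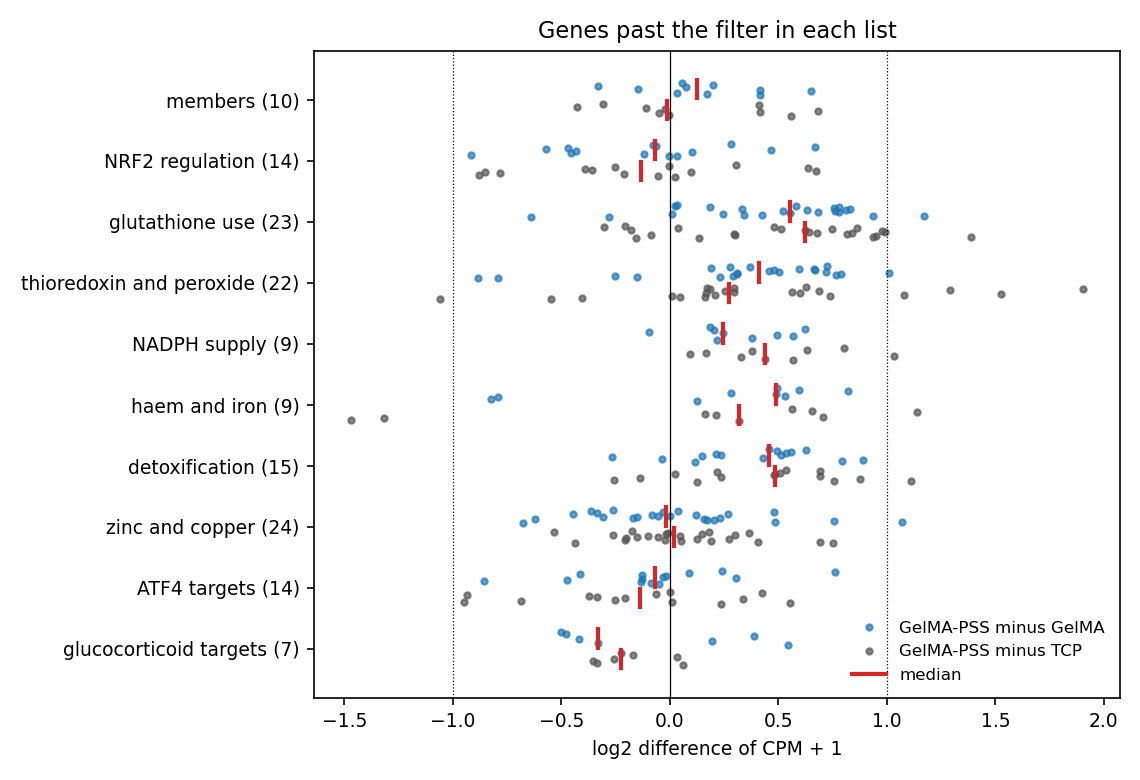
Difference in log2(CPM + 1) of GelMA-PSS from each control for every gene past the filter in the members and the 9 context lists (number in brackets), 1 point per gene, blue against GelMA and grey against TCP, with red bars at the medians and dotted lines at 2-fold. On this TMM scale, without the length correction, medians against GelMA run from -0.33 for glucocorticoid targets with their receptor to 0.55 for glutathione use.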

How the data were processed

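RNA-seq libraries of c2c12 cells on TCP, GelMA and GelMA-PSS, 1 per substrate, were grouped by the substrate label. The values deposited by the authors are raw counts, 1 table per library with a line per gene symbol. The submitters' processing notes name TopHat, edgeR, mm10 and hg19 without their roles, and the counting tool and annotation are not given in the sources used here. The methods name a TruSeq kit and 101 bp strand-specific paired reads, and the labels a SMARTER kit. The FPKM values of the methods were not used.

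Each file has 23282 lines, in which 35 symbols are repeated, and lines sharing a symbol were summed, giving 23238. Totals of 119799095, 87071144 and 192171443 put 3 counts at a CPM of 0.0246, 0.0330 and 0.0166. CPM used TMM factors of 1.02, 1.04 and 0.943 (edgeR 4.0.16, R 4.3.3). Genes were kept where any library reached a CPM of 1, and differences taken on log2(CPM + 1), which understates changes of low genes. Folds are ratios of CPM with exact binomial intervals, and levels have Wilson intervals (scipy 1.17.1). Transcript length, GC content and coordinates came from GENCODE vM21 (GRCm38), 1 transcript per gene, with 373 symbols unmatched. The correction subtracted successive loess fits on length and GC content (span 0.3, statsmodels 0.14.6). Promoters came from RefSeq (GRCm38.p6).

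Named were all members, the genes of each list past 2-fold against both controls, or the 3 largest differences where fewer passed, and Nfe2l2, Keap1, Bach1 and Mtf1. Slc3a2, Gss, Slc30a1, Mt3, Mt4, Txnip, Blvra, Atf4 and the muscle markers were named after their values were seen. The result of 1 other marker list is not reported here. Members and lists were chosen with earlier results of these data known. A check of the code used simulated counts with counting error only, no length trend, and changed genes of a mean CPM of at least 10. In it, 200 of 200 genes changed 4-fold were recovered among 12910, and 0 unchanged genes were called. The simulated counts were scaled by library totals alone, so the check did not cover the TMM scaling. Changes of 4-fold were judged at the 2-fold threshold and are easily recovered at these depths. The check says nothing about the spread between cultures. Alternatives covered scaling (DESeq2 1.42.0 size factors, total counts, TPM), filter, pseudocount, fold threshold and the correction.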

Additional observations from a re-analysis of the deposited data

How the results depend on the processing

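No paired analysis was possible because each substrate had 1 library, and leaving out a library was not possible for the same reason. None of the 10 genes passed 2-fold against both controls under any alternative, nor 1.5-fold with TMM scaling. Median-of-ratios scaling, no filter, a filter at a CPM of 5 and a pseudocount of 0.25 changed the sign of none of the 30 differences of the members, total counts changed 3, TPM 7 and the length and GC correction 8. Members above both controls numbered 4 in the reported values, 4 with total counts, 1 on the TPM scale and 3 after the correction. The shares of all genes above both were 45.3%, 35.5%, 15.4% and 40.6% in the same order. Members below both numbered 2 in the reported values, 5 with total counts, 6 with TPM and 5 after the correction, beside 39.3%, 49.2%, 72% and 40.6% of all genes. Over all genes, 180 were 2-fold higher and 153 lower, against 97 and 261 with total counts, 30 and 612 with TPM, 60 and 79 after the correction and 1064 and 946 at 1.5-fold, while a pseudocount of 0.25 gave 236 and 241. The cause of these shifts was not tested, apart from the lower threshold, which admits more genes. At 1107 counts or more per value, counting error was small for the members, and without a second library the spread between cultures is unknown.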

Other observations

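The genes with profiles nearest to 3 of the members were sought among 9264 genes with a mean CPM of at least 10, by distance in the plane of the differences from TCP to GelMA and from GelMA to GelMA-PSS. With 3 libraries, nearness is easily reached and is a description. For Mt1 the nearest were Ldah, Adck4 and Las1l, and 416 genes lay within 0.1 on the log2 scale. For Mt2 they were Gm14005, Ssbp2 and Anapc11, with 170 genes within that distance. For Srxn1 they were St6galnac6 (CPM of 47.3, 57.1 and 76.4 in TCP, GelMA and GelMA-PSS), Gp1bb and Cmtm3, with 81 genes within it.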
